A study of Mus musculus with 4 samples.

Results

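The liver library titled HFD_EXE5 was set against the liver library titled S1, cell class by cell class, to describe what stood apart and what was alike between them. Both are single libraries of non-parenchymal liver cells of C57BL/6J mice 30 weeks old, made by enzymatic digestion, red cell lysis, removal of dead cells and 3' droplet capture; the number of mice behind a library is not stated in the labels. The series covers a high fat diet (HFD) and physical exercise, and the letters S, sed and EXE in the library names are not spelled out in the sources used here, so the libraries are called S, HFD_sed and HFD_EXE throughout, and the diet of S is not stated here. Cells were taken when they held at least 500 unique molecular identifiers (UMIs, each standing for 1 captured RNA molecule), at least 300 genes and under 15% mitochondrial UMIs, and were not called doublets. This kept 10172 cells of HFD_EXE and 10212 of S, together 20384 of the 31124 kept cells in the 3 libraries analysed. HFD_sed, with 10740 kept cells, is given only as a value beside the others, and the library titled E1 was not used here. With 1 library per side there was no test: every interval below is a 95% interval of counting error, and the comparison is between 2 libraries and not between conditions.

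Liver non-parenchymal cells are the cells of the organ other than hepatocytes. Liver sinusoidal endothelial cells (LSECs) line the blood channels with a fenestrated, scavenging endothelium, Kupffer cells are the resident macrophages held in those channels, and circulating and resident lymphocytes, neutrophils and monocytes pass through or stay there. LSECs send signals such as Wnt2, Bmp2 and Bmp6 to hepatocytes, respond to shear through Klf2 and Klf4, and, like leukocytes, carry the glucocorticoid receptor Nr3c1, whose target genes follow the adrenal stress hormone and its daily rhythm.

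The deposited matrices held 11660 barcodes for S, 11752 for HFD_sed and 11280 for HFD_EXE, against a stated capture of 5000 to 6000 cells per sample. Median depth of the kept cells was 6150 UMIs for S, 4180 in HFD_sed and 4918 in HFD_EXE, and each pair of libraries shared between 30 and 43 barcode sequences. Clustering of the 31124 cells gave 25 clusters, which were named "-like" from marker genes, and the names are rebuilt ones. Defining markers were found in the 2 classes with most cells in S and HFD_EXE: the 8 Kupffer markers summed to 22296 counts per 1000000 UMIs (CPM) in the Kupffer-like class of S and 17152 in that of HFD_EXE, and the 7 LSEC markers to 13543 and 12828 in the LSEC-like class. Within a class the cells of the libraries often fell in different clusters. Cluster 0 held 80.2% of the LSEC-like cells of HFD_EXE and 1.56% of those of S, cluster 1 held 8.77% and 89.7%, and cluster 3 held 82.3% of those of HFD_sed. Of the Kupffer-like cells, cluster 2 held 94.4% in HFD_EXE and 9.02% in S, and cluster 5 held 5.29% and 90.8%. A cluster that comes mostly from 1 library may be that library and not a cell type, so values are compared between whole classes.

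LSEC-like cells took a larger share of the HFD_EXE library and Kupffer-like, natural killer (NK)-like and hepatocyte-like cells a smaller one. LSEC-like cells were 35.7% (34.8 to 36.7) of kept cells in S, 24.5% (23.7 to 25.3) in HFD_sed and 57.7% (56.8 to 58.7) in HFD_EXE, with exact Clopper-Pearson intervals, and the ratio of HFD_EXE to S was 1.62 (1.55 to 1.68). Kupffer-like cells were 21.4% (20.6 to 22.2) in S and 11.5% (10.9 to 12.2) in HFD_EXE, with 11.5% in HFD_sed. The Kupffer-like ratio of HFD_EXE to S was 0.539 (0.502 to 0.579) over all kept cells, where the shares of HFD_EXE and HFD_sed were close. Among immune cells alone the shares were 40.9% in S, 15.8% in HFD_sed and 32.2% in HFD_EXE, and there HFD_EXE lay nearer to S. NK-like cells were named for cytotoxic lymphocytes from markers that include Ncr1 and Eomes. Both are leading genes of cluster 16 but not of cluster 14, whose leading genes include Klra7, Trdc and Cd3g. Cluster 14 held 49.9% of the class in S and 56.5% in HFD_EXE. Among the immune classes with at least 100 cells in each of S and HFD_EXE, the NK-like class had the ratio farthest from 1. NK-like cells numbered 355 in S and 108 in HFD_EXE, a ratio of 0.305 (0.244 to 0.38). HFD_sed held 455 of them, at 4.24%, so the low NK-like share was seen in HFD_EXE and not in HFD_sed.

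Several immune shares of HFD_EXE were nearer to those of S than to those of HFD_sed. T-like cells were 9.66% of kept cells in S and 7.85% in HFD_EXE, against 26.3% in HFD_sed. Monocyte-like cells were 1.91%, 1.45% and 11.8% in the same order, and conventional dendritic cell (cDC)-like cells 1.43%, 1.31% and 3.85%. The cDC-like and neutrophil-like ratios of HFD_EXE to S, 0.915 (0.718 to 1.16) and 0.928 (0.831 to 1.04), had intervals that include 1. B-like cells were 6.75% in S and 4.8% in HFD_EXE, a ratio of 0.711 (0.632 to 0.8). These shares depend on the denominator, because the LSEC-like class alone holds 57.7% of HFD_EXE. Among immune cells only, the ratio of HFD_EXE to S was 1.19 (1.08 to 1.31) for T-like, 1.04 (0.924 to 1.17) for B-like and 1.36 (1.21 to 1.51) for neutrophil-like cells. It was 1.34 (1.05 to 1.7) for cDC-like and 1.11 (0.893 to 1.39) for monocyte-like cells, so all 5 of these ratios passed from below 1 to above 1, and the B-like and monocyte-like intervals include 1. It stayed below 1 for Kupffer-like cells, at 0.789 (0.734 to 0.847), and for NK-like cells, at 0.446 (0.357 to 0.555).

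Smaller classes are given by their counts. Hepatocyte-like cells were 10.3% of S and 4.17% of HFD_EXE, but 950 of the 1049 in S came from cluster 10, whose cells hold few UMIs. Erythroid-like cells numbered 35 in S and 96 in HFD_EXE, a ratio of 2.75 (1.85 to 4.18), and plasma cell-like cells 27 and 54, a ratio of 2.01 (1.24 to 3.32). Plasmacytoid dendritic cell-like cells had a ratio of 1.35 (1.01 to 1.82), other endothelium 1.5 (1.08 to 2.08) and cholangiocyte-like cells 1.04 (0.617 to 1.74), the last of which became 0.769 (0.459 to 1.29) among non-immune cells. The LSEC-like ratio stayed above 1 under every alternative run for it and was smallest, at 1.2, among non-immune cells alone. Tissue digestion and red cell lysis precede the capture, and their part in these shares was not tested.

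**Figure D1:**
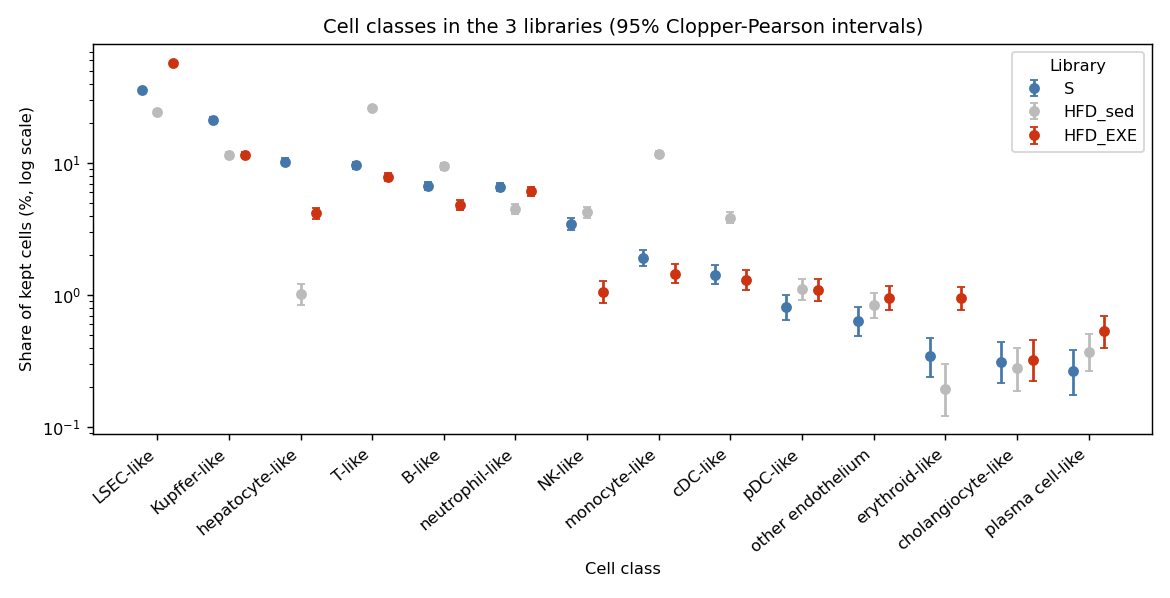
Share of kept cells (%, log scale) of 14 cell classes in S (blue), HFD_sed (grey) and HFD_EXE (red), with 95% Clopper-Pearson intervals of counting error. LSEC-like cells are highest in HFD_EXE at 57.7%, NK-like cells are lowest there at 1.06%, and the T-like and monocyte-like points of S and HFD_EXE lie close together below those of HFD_sed.

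For expression, the UMIs of a gene were added over the cells of a class in 1 library and scaled to the class total, in CPM. A gene counted as measured with at least 20 UMIs over both libraries in the class. It was called higher or lower at a ratio of at least 2 with an interval that excludes 1, and alike when the whole interval of the ratio lay within 1.5-fold of equality. UMIs of 1 cell are not independent, so these intervals are too narrow for genes held by a few cells, many of which are pointed out below. Mup11, Cyp4a10, Cyp4a14, Serpina3f, Serpina3g, H2ac24, H2ac8, Stfa1 and the haemoglobin genes belong to families of near-identical copies, between which the counting can split reads, so their values are uncertain.

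Of 8141 genes measured in all 5 main classes (LSEC-like, Kupffer-like, T-like, neutrophil-like and B-like), 21 were higher in HFD_EXE in every class, 15 were lower in every class and 957 were alike in every class. The 21 include leading genes of LSEC-like clusters (Adamts1, Ednrb, Rasd1 and Apold1) and of the plasma cell-like cluster (Ighg2b, Ighg2c and Jchain). They also include Hba-a2 of the erythroid-like cluster, Car3 and Akr1c6 of a hepatocyte-like cluster, and Mup7, Mup11 and Mup17. Among the 15 are Cyp4a14, Cyp4a10 and Alb, which lead a hepatocyte-like cluster. The part of RNA from other cells in these calls was not tested. Fkbp5, the co-chaperone of the glucocorticoid receptor and one of its best known targets, was among the 21. Its level was 43 CPM in S, 68.8 in HFD_sed and 173 in HFD_EXE in LSEC-like cells, and 26.5 CPM in S, 45.9 in HFD_sed and 231 in HFD_EXE in neutrophil-like cells. HFD_EXE was thus 4.02-fold higher (3.79 to 4.28) than S in LSEC-like, 4.71-fold higher (4.34 to 5.11) in Kupffer-like, 2.16-fold higher (1.84 to 2.52) in T-like, 8.74-fold higher (6.62 to 11.7) in neutrophil-like and 8.16-fold higher (5.82 to 11.7) in B-like cells, while HFD_sed lay nearer to S in all 5. Adamts1, a secreted metalloprotease, was 6.06-fold higher (5.88 to 6.26) in LSEC-like cells, at 152 CPM in S, 575 in HFD_sed and 924 in HFD_EXE, and was also called in the other 4 classes, where its level in HFD_EXE was at most 127 CPM. LSEC-like cells held its highest level of all classes in HFD_EXE. With the estimated free RNA of each library subtracted, the log2 ratio of Adamts1 was 2.60 in LSEC-like, 3.70 in Kupffer-like, 3.58 in T-like, 3.65 in neutrophil-like and 1.26 in B-like cells. The amount subtracted was set from hepatocyte transcripts alone. The 7 LSEC markers summed to 1150 CPM in S and 2117 in HFD_EXE in Kupffer-like cells, and to 490 and 689 in T-like cells. In neutrophil-like cells the sums were 683 and 1391, and in B-like cells 1549 and 682. The part of LSEC RNA in the Adamts1 calls of these 4 classes was not tested.

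Of the other genes named by rank among those called in every class most are transcripts of hepatocytes. Mup11, a major urinary protein, was higher in HFD_EXE in all 5, with 9.6 CPM in S, 2.36 in HFD_sed and 59 in HFD_EXE in LSEC-like cells. Akr1c6, a hepatocyte hydroxysteroid dehydrogenase, was higher as well, with 4.78 CPM in S and 25.3 in HFD_EXE in LSEC-like cells, but there its log2 ratio turned to -3.66 with the estimated free RNA subtracted. Cyp4a14 and Cyp4a10, fatty acid omega-hydroxylases of hepatocytes, were lower in all 5: Cyp4a14 stood at 52.2 CPM in S, 4.15 in HFD_sed and 11 in HFD_EXE in LSEC-like and 103 CPM in S, 1.56 in HFD_sed and 10.03 in HFD_EXE in neutrophil-like cells. The hepatocyte-like class held the highest Cyp4a14 level in both libraries, 1020 CPM in S and 391 in HFD_EXE. With the estimated free RNA subtracted, Cyp4a14 and Cyp4a10 were no longer measured in any of the 5. Mir6236, a gene model whose UMIs do not measure a mature microRNA, was lower, at 3549 CPM in S, 1075 in HFD_sed and 1113 in HFD_EXE in LSEC-like cells. Cxcl13, a B cell attracting chemokine, was lower in all 5, from 654 CPM in S, 244 in HFD_sed and 217 in HFD_EXE in Kupffer-like cells, its highest class in S, to 9.47 CPM in S, 5.49 in HFD_sed and 1.93 in HFD_EXE in LSEC-like cells. With the estimated free RNA subtracted, Cxcl13 stayed measured in Kupffer-like cells alone.

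Some of the 13 listed targets of the glucocorticoid receptor were higher in HFD_EXE in each of the 5 main classes, and none was lower in any. In LSEC-like cells 7 of 13 were higher, with a median log2 ratio of 1.53, beside 4.65% of the 15555 genes measured there. In Kupffer-like cells 6 of 13 were higher (median 0.90, all genes 7.07%). The counts were 5 of 13 in T-like cells (median 0.79, all genes 3.15%), 6 of 13 in neutrophil-like cells (median 0.86, all genes 6.23%) and 3 of 12 in B-like cells (median 0.61, all genes 1.68%). The receptor gene Nr3c1 itself was alike in 4 of the 5 classes, with a ratio of 1.02 (0.98 to 1.05) in LSEC-like, 0.728 (0.672 to 0.788) in Kupffer-like, 1.24 (1.08 to 1.41) in neutrophil-like and 1.01 (0.843 to 1.2) in B-like cells. Its ratio in T-like cells, 1.39 (1.27 to 1.51), was neither alike nor called.

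The members with the largest ratios differed by class. Ddit4, which restrains the growth kinase mTORC1, had 10.1 CPM in S, 29.5 in HFD_sed and 139 in HFD_EXE in Kupffer-like cells, the highest ratio of the list at 13.8-fold higher (11.9 to 16). It was 7.17-fold higher (6.61 to 7.78) in LSEC-like and 6.29-fold higher (4.49 to 8.97) in B-like cells. Cdkn1a, which encodes the cell cycle inhibitor p21, had 78.2 CPM in S, 210.1 in HFD_sed and 594 in HFD_EXE in LSEC-like cells and is among the leading genes of LSEC-like cluster 11. Klf9, a transcription factor gene induced by glucocorticoids, was 3.66-fold higher (3.45 to 3.88) in Kupffer-like, 3.27-fold higher (2.79 to 3.85) in T-like and 4.21-fold higher (3.14 to 5.72) in neutrophil-like cells, and was alike in B-like cells at a ratio of 1.13 (0.888 to 1.44). Txnip, which blocks the antioxidant thioredoxin, went apart by class: it was 2.89-fold higher (2.77 to 3.004) in T-like cells, at 548 CPM in S and 1582 in HFD_EXE, but alike in LSEC-like cells, with a ratio of 0.694 (0.685 to 0.703). Neither the stress before collection nor the hour of collection is given in the sources used here, and their part in these levels was not tested.

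**Figure D2:**
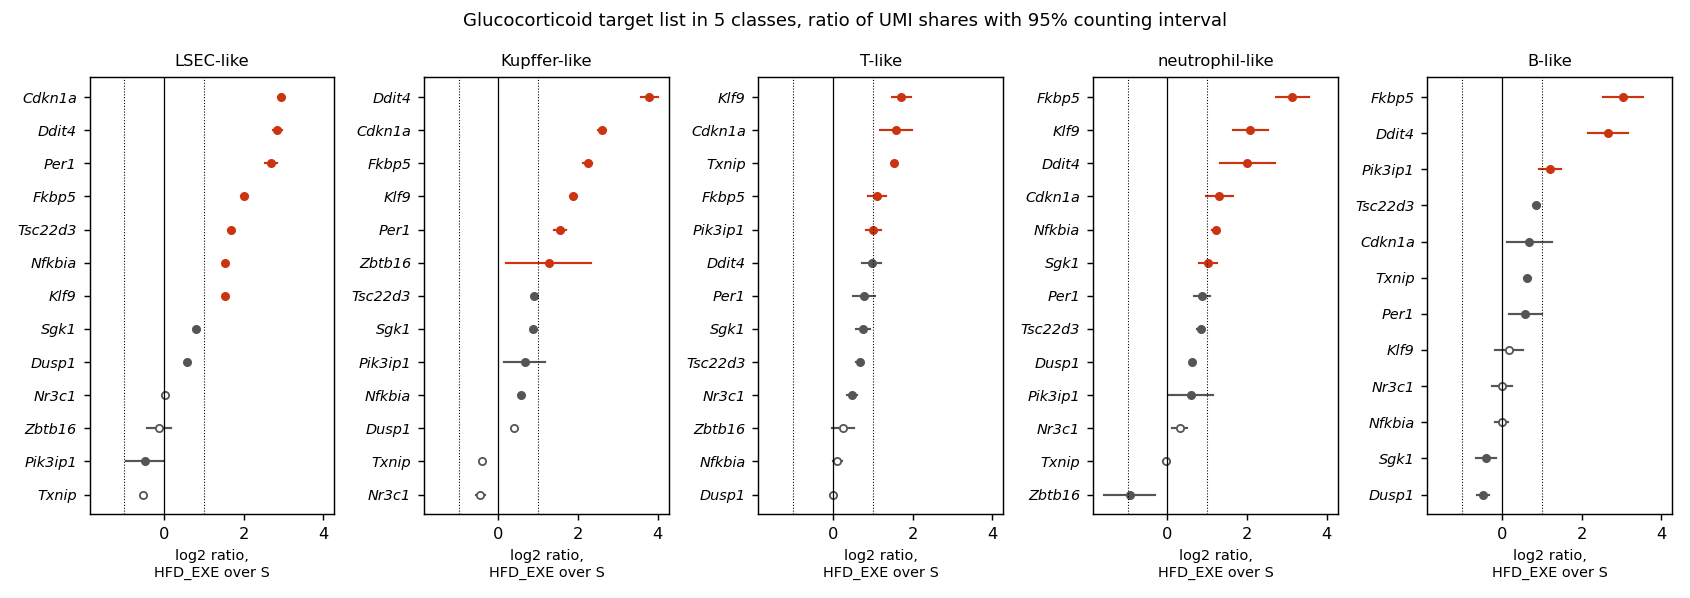
Log2 ratio of CPM in HFD_EXE over S for the measured members of the glucocorticoid target list in 5 classes, with 95% counting intervals; red points are called higher, open points alike, filled grey points neither, and dotted lines mark a ratio of 2. Red points number 7, 6, 5, 6 and 3 from left to right, and no member is called lower.

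In LSEC-like cells 724 genes were higher in HFD_EXE, 560 (3.6%) were lower and 8277 (53.2%) were alike. The scavenging endothelial identity was alike: all 16 genes of that list had ratios within 1.5-fold, with a median log2 ratio of -0.04. Their summed level was 25455 CPM in S, 19949 in HFD_sed and 26788 in HFD_EXE. The Fc receptor gene Fcgr2b stood at 2853 CPM in S, 2412 in HFD_sed and 3072 in HFD_EXE, the nuclease gene Dnase1l3 at 2843 CPM in S, 1849 in HFD_sed and 2666 in HFD_EXE, and Maf, a transcription factor gene of LSEC identity, at 3518 CPM in S, 3612 in HFD_sed and 4857 in HFD_EXE. For the first pair HFD_EXE was nearer to S than HFD_sed was. Kdr, the main receptor for vascular endothelial growth factor, was alike as well, at a ratio of 0.99 (0.982 to 0.999). Dnase1l3 and Kdr are also among the markers from which the class was named in both libraries, so that naming itself favours likeness in them.

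Genes that respond to blood flow were higher in part. Of 12 measured shear-responsive genes 4 were higher (all genes 4.65%), none was lower and 7 were alike, and the list's median log2 ratio was 0.13. The transcription factor gene Klf2, through which endothelium responds to shear, had 890.1 CPM in S, 2534 in HFD_sed and 2957 in HFD_EXE, which made HFD_EXE 3.32-fold higher (3.28 to 3.37) than S. Klf4, its relative, had 332 CPM in S, 672 in HFD_sed and 1091 in HFD_EXE and was 3.28-fold higher (3.21 to 3.36). HFD_sed was also above S for both. Thbd, the anticoagulant receptor thrombomodulin, was high in HFD_EXE alone of the 3 libraries, at 198 CPM in S, 95.8 in HFD_sed and 779 in HFD_EXE. Gja4, a gap junction protein, followed the same order, with 264 CPM in S, 50.2 in HFD_sed and 691 in HFD_EXE, and both lead cluster 0, which holds most LSEC-like cells of HFD_EXE. Timp3, Sod1 and Slc9a3r2 of this list were alike, with ratios of 1.09 (1.08 to 1.1), 0.879 (0.859 to 0.9) and 0.826 (0.805 to 0.848).

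The genes named by rank as higher in LSEC-like cells are mostly induced within hours by many signals. Nr4a1, an orphan nuclear receptor and immediate early gene, had 23.5 CPM in S, 419 in HFD_sed and 204 in HFD_EXE and was 8.69-fold higher (8.04 to 9.41). Apold1, an endothelial immediate early gene that leads clusters 0, 3 and 11, had 71.3 CPM in S, 979 in HFD_sed and 546 in HFD_EXE. Both were highest in HFD_sed. Sik1, a salt-inducible kinase, had 8.72 CPM in S, 131 in HFD_sed and 80.2 in HFD_EXE. Cebpb, a transcription factor gene of inflammation and metabolism, had 46.7 CPM in S, 246 in HFD_sed and 408 in HFD_EXE and Adamts9, a secreted metalloprotease that leads cluster 0, 7.7 CPM in S, 57.2 in HFD_sed and 74.3 in HFD_EXE, both highest in HFD_EXE. Of 13 immediate early genes 4 were higher (all genes 4.65%) and 5 were alike (all genes 53.2%). Fos and Junb, which respond to tissue dissociation among other stimuli, were alike, Fos with a ratio of 0.902 (0.882 to 0.922) and Junb at 442 CPM in S and 442 in HFD_EXE, whereas HFD_sed stood at 1055 CPM for Fos against 520.5 in S and 469 in HFD_EXE. The part of the dissociation in these levels was not tested.

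Some signals from LSECs to their neighbours were lower in HFD_EXE and none was called higher. Of 15 angiocrine genes 4 were lower (all genes 3.6%) and 6 were alike (all genes 53.2%), with a median log2 ratio of -0.42. Their summed level, which Bmp2 leads, was 3756 CPM in S, 2189.7 in HFD_sed and 4008 in HFD_EXE. Bmp6, which LSECs release to set hepcidin in hepatocytes, had 322 CPM in S, 159.6 in HFD_sed and 125 in HFD_EXE and was 2.57-fold lower (2.47 to 2.66), and it leads cluster 1, which holds most LSEC-like cells of S. Dll4, a Notch ligand, had 70.9 CPM in S, 157 in HFD_sed and 26.2 in HFD_EXE and was 2.71-fold lower (2.5 to 2.93). Pdgfb, a growth factor for stellate cells and pericytes, had 36.3 CPM in S, 113 in HFD_sed and 9.89 in HFD_EXE and was 3.67-fold lower (3.24 to 4.17). For Dll4 and Pdgfb HFD_sed was above S and HFD_EXE below it. Wnt9b, a Wnt ligand of the central vein side, had 32.5 CPM in S, 0.83 in HFD_sed and 13.4 in HFD_EXE, and HFD_EXE lay between the other libraries. Bmp2, Wnt2 and Hgf, the other leading signals to hepatocytes, were alike between HFD_EXE and S, with ratios of 1.25 (1.23 to 1.26), 0.879 (0.859 to 0.9) and 1.28 (1.23 to 1.32). In HFD_sed these stood at 1288, 129.5 and 39.9 CPM, below S at 2453, 486 and 158 CPM.

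Position genes of the sinusoid differed among themselves. Kit, the receptor that marks central-side sinusoids, had 425 CPM in S, 97.4 in HFD_sed and 461 in HFD_EXE, and Ptgs1, which makes prostaglandin precursors, 345 CPM in S, 158 in HFD_sed and 287 in HFD_EXE. Of the 15 central-side genes 8 were alike (all genes 53.2%), 2 were higher (Thbd and Gja4, all genes 4.65%) and 1 was lower (Wnt9b, all genes 3.6%). Their summed level was 3537 CPM in S, 4990.4 in HFD_sed and 4432 in HFD_EXE. Of 14 portal-side genes 9 were alike, 2 were lower (Dll4 and Hey1) and 1 was higher (Glul, 2.16-fold higher (2.11 to 2.21), whose level is highest in hepatocyte-like cells). Ntn4, a portal-side netrin, had 272 CPM in S, 927 in HFD_sed and 301 in HFD_EXE. The leukotriene C4 synthase gene Ltc4s, which leads cluster 1, at 148 CPM in S, 3.39 in HFD_sed and 49 in HFD_EXE, differed between all 3 libraries.

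Of the 5 genes named by rank as lower in LSEC-like cells, Cyp4a14 and Mir6236 are given above, and Zfp503 and Hhex encode transcription factors. Zfp503 ranked first, had 266 CPM in S, 156 in HFD_sed and 31.9 in HFD_EXE and was 8.35-fold lower (7.82 to 8.91), and it leads cluster 1. After thinning each cell to 2000 UMIs it was found in 36.9% of 3504 LSEC-like cells of S and 5.17% of 5012 of HFD_EXE, against 71.9% and 12.9% without thinning. Thinned in the same way, 2.09% of B-like cells of S and 0.217% of those of HFD_EXE held it, at median depths of 3660 and 3439.5 UMIs. Hhex, a homeobox gene of liver and endothelial development, had 72.3 CPM in S, 68.6 in HFD_sed and 20.6 in HFD_EXE, low in HFD_EXE alone. Cdc42ep3, an effector of the cytoskeletal switch Cdc42, had 86.2 CPM in S, 57.5 in HFD_sed and 26.1 in HFD_EXE. Of the complement list 4 of 14 were lower (all genes 3.6%), but C6, Cfp and C3ar1 are highest in Kupffer-like cells in HFD_EXE. The 8 Kupffer markers summed to 434 CPM in LSEC-like cells of S and 239 in those of HFD_EXE, with none at 0, and their part in the complement result was not tested.

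Other endothelial gene groups held called and alike members. Of 13 genes of VEGF signalling and tip cells 6 were alike (all genes 53.2%), 2 higher (all genes 4.65%) and 2 lower (all genes 3.6%). The receptor genes Nrp1 and Flt1 had ratios of 1.05 (1.03 to 1.06) and 0.973 (0.958 to 0.988). Of 12 Notch genes the receptors Notch1 and Notch4 were alike, with ratios of 1.24 (1.22 to 1.27) and 1.09 (1.01 to 1.17), and the ligand Dll4 and the target Hey1 were lower, the latter at only 1.12 and 0.513 CPM. The basement membrane collagen genes Col4a1 and Col4a2, which rise when sinusoids turn into capillaries, were alike, with 440.3 CPM in S, 545 in HFD_sed and 508 in HFD_EXE for Col4a1. Slco2a1, a prostaglandin importer, was alike at 421 CPM in S, 49.4 in HFD_sed and 409.9 in HFD_EXE, far above HFD_sed in both. Of 15 inflammatory genes 3 were higher, 1 lower and 3 alike. Il1a, an alarm cytokine gene whose highest class was LSEC-like, had 78.3 CPM in S, 289.8 in HFD_sed and 242 in HFD_EXE, and Nfkbia 292 CPM in S, 410.2 in HFD_sed and 844 in HFD_EXE. Nqo1, a quinone reductase controlled by NRF2, was 3.2-fold lower (2.8 to 3.66), at 29.1 CPM in S, 2.11 in HFD_sed and 9.11 in HFD_EXE.

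Lipid genes of LSEC-like cells were alike at about the share of all genes. Gpihbp1, which anchors lipoprotein lipase to endothelium, had 1717 CPM in S, 1542 in HFD_sed and 1399 in HFD_EXE, Cpt1a, the gate of mitochondrial fatty acid oxidation, 115 CPM in S, 68 in HFD_sed and 116 in HFD_EXE, and the lipid droplet coat gene Plin2 153 CPM in S, 203 in HFD_sed and 167 in HFD_EXE. Pparg, a fat-sensing nuclear receptor, was 2.71-fold higher (2.12 to 3.5), at 2.92 CPM in S, 18.5 in HFD_sed and 7.9 in HFD_EXE, and Scd1, a fatty acid desaturase, was 2.98-fold lower (2.62 to 3.4), at 28.9 CPM in S, 38.1 in HFD_sed and 9.71 in HFD_EXE. Of 16 genes of fatty acid uptake and storage 9 were alike (all genes 53.2%) and 1 was called, and of 13 genes of cholesterol efflux 9 were alike and 1 was called.

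**Figure D3:**
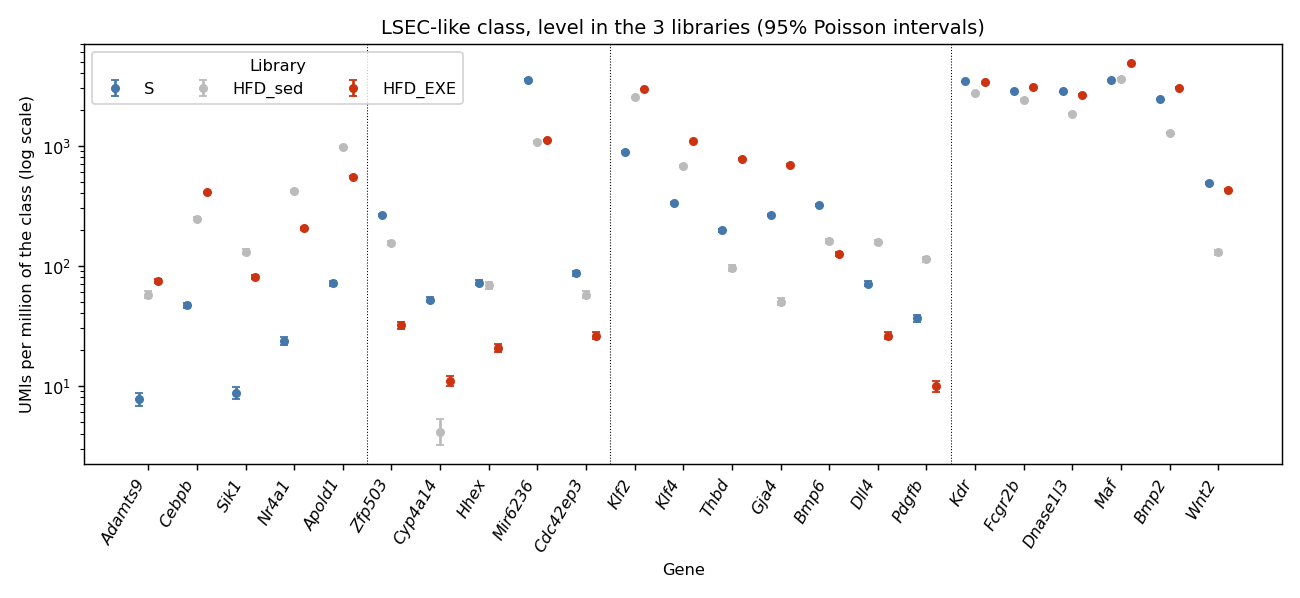
Level in CPM (log scale) of 23 genes in the LSEC-like class of S (blue), HFD_sed (grey) and HFD_EXE (red), with 95% Poisson intervals; dotted lines part the 5 genes named as higher, the 5 named as lower, shear and angiocrine genes, and genes called alike. Zfp503 lies at 266 CPM in S and 31.9 in HFD_EXE, whereas Kdr lies at 3439 and 3405.

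The circadian clock list split in LSEC-like cells. The repressor genes Nr1d1 and Nr1d2, which encode REV-ERB receptors, had 6.52 CPM in S, 36 in HFD_sed and 37.4 in HFD_EXE and 12.4 CPM in S, 40.4 in HFD_sed and 66.8 in HFD_EXE. The opposite was seen for Cry1, a core clock repressor, with 36.2 CPM in S, 8.24 in HFD_sed and 8.24 in HFD_EXE, and for Per2, with 14 CPM in S, 2.49 in HFD_sed and 4.07 in HFD_EXE. Per1, which glucocorticoids also induce, was 6.38-fold higher (5.76 to 7.09). In all, 4 of 14 clock genes were higher (all genes 4.65%), 3 lower (all genes 3.6%) and 4 alike, and the activator genes Clock and Arntl were alike, with ratios of 1.13 (1.08 to 1.18) and 0.827 (0.768 to 0.891). In Kupffer-like cells 5 of 13 were lower (all genes 3.73%), among them Cry1 (6.55-fold lower (4.19 to 10.8)) and Tef (3.46-fold lower (2.7 to 4.5)), and 2 were higher (all genes 7.07%), Per1 and Nr1d1. HFD_sed lay on the side of HFD_EXE for Cry1, Per2, Nr1d1 and Nr1d2 in LSEC-like cells.

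Genes of cell division were lower in T-like cells. Of the 14 measured, 10 were lower and none higher, with a median log2 ratio of -1.31, beside 3.64% of all 12500 measured genes. Birc5, the mitotic survival factor survivin, had 65.5 CPM in S, 28.7 in HFD_sed and 23.6 in HFD_EXE, Ccnb2, a mitotic cyclin, 39.98 CPM in S, 14 in HFD_sed and 11 in HFD_EXE, and Rrm2, which makes DNA precursors, 35.3 CPM in S, 16.7 in HFD_sed and 9.05 in HFD_EXE. Birc5 UMIs were held by 48 of 986 T-like cells in S and 16 of 798 in HFD_EXE, so these values rest on few cells. The histone genes named by rank went the same way. H2ac24 had 455 CPM in S, 101 in HFD_sed and 78.6 in HFD_EXE and H2ac8 174 CPM in S, 45.2 in HFD_sed and 33.6 in HFD_EXE, in 118 and 57 cells of S and 38 and 14 of HFD_EXE. In LSEC-like cells 5 of 14 division genes were lower (all genes 3.6%), for example Top2a at 10.7 CPM in S, 21 in HFD_sed and 3.11 in HFD_EXE, but the replication genes Pcna and Mcm3 were alike. The LSEC-like median of -0.90 became -0.01 when only S and HFD_EXE were clustered, and Top2a was found in 61 and 31 cells. In Kupffer-like cells none of 14 was called.

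**Figure D4:**
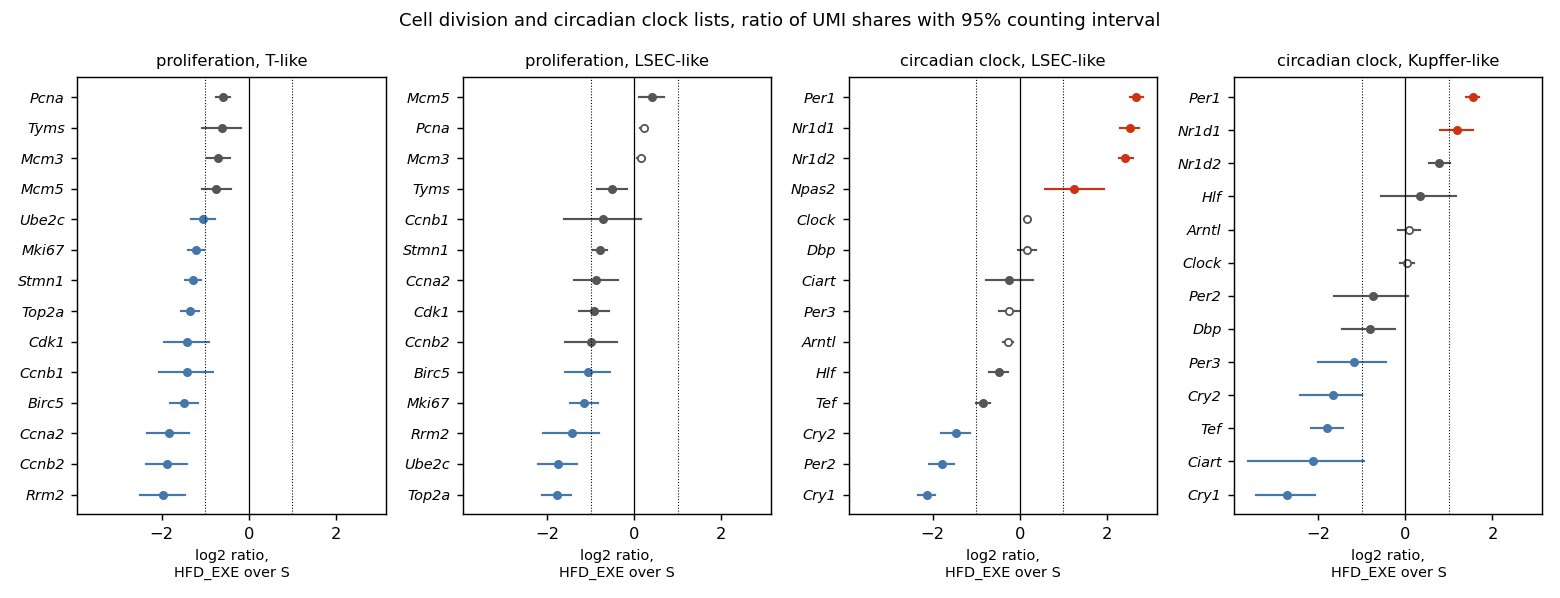
Log2 ratio of CPM in HFD_EXE over S with 95% counting intervals for the proliferation list in T-like and LSEC-like cells and the circadian clock list in LSEC-like and Kupffer-like cells; red points are called higher, blue lower, open alike, filled grey neither. All 14 division genes lie below 0 in T-like cells, and Per1, Nr1d1 and Nr1d2 lie opposite to Cry1 in LSEC-like cells.

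In Kupffer-like cells 1006 of 14226 measured genes were higher in HFD_EXE, 530 (3.73%) lower and 5848 (41.1%) alike. The cells were shallower in HFD_EXE, with a median of 4033 UMIs against 10151 in S, and LSEC markers in them summed to 1150.0 CPM in S and 2117 in HFD_EXE, with none of 7 at 0. With estimated free RNA subtracted, 932 genes were higher and 1227 lower. Of 14 identity genes 6 were alike and 1 lower, and the median log2 ratio was -0.55. Cd5l, a secreted scavenger protein, had 6549 CPM in S, 4017 in HFD_sed and 5079.8 in HFD_EXE, and Folr2, a folate receptor of resident macrophages, 777 CPM in S, 261 in HFD_sed and 635 in HFD_EXE, so both were nearer to S in HFD_EXE than in HFD_sed. Id3, a transcription factor gene needed for Kupffer cells, was 2.36-fold lower (2.26 to 2.46), at 878 CPM in S, 817 in HFD_sed and 372 in HFD_EXE. Timd4, the receptor of long-lived resident Kupffer cells, was found after thinning to 2000 UMIs in 63.5% of 2043 Kupffer-like cells of S, 25.9% of 905 of HFD_sed and 50.8% of 865 of HFD_EXE, and without thinning in 87.9%, 34.7% and 64.8%. The thinned share in B-like cells was 3.29% in S and 1.52% in HFD_EXE, at median depths of 3660 and 3439.5 UMIs. Cd5l, Folr2 and Timd4 are also among the markers from which the Kupffer-like class was named, so that naming itself favours likeness in them.

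The genes named as higher in Kupffer-like cells had large ratios. Cytip, which binds cytohesin and loosens adhesion of leukocytes, had 37 CPM in S, 92.4 in HFD_sed and 535 in HFD_EXE, a level 14.5-fold higher (13.4 to 15.6) in HFD_EXE. Its highest class in both libraries is neutrophil-like. Havcr2, the inhibitory receptor TIM-3, had 5.76 CPM in S, 14.2 in HFD_sed and 65.6 in HFD_EXE, and Gpt2, a mitochondrial alanine aminotransferase, 11.1 CPM in S, 12.3 in HFD_sed and 98 in HFD_EXE. These 3 were low in both S and HFD_sed. Thbd had 28.5 CPM in S, 32.2 in HFD_sed and 282 in HFD_EXE, a ratio of 9.89 (9.04 to 10.8). Fcgr2b and Lyve1, which are both highest in LSEC-like cells, had ratios of 2.34 (2.24 to 2.45) and 2.02 (1.85 to 2.21). Thbd was also higher in LSEC-like cells of HFD_EXE, whereas Fcgr2b was alike there. The part of LSEC RNA in these 3 values was not tested. Il10, the anti-inflammatory cytokine, had 24.9 CPM in S, 28.6 in HFD_sed and 131 in HFD_EXE, and its highest level of any class in HFD_EXE was in these cells. It was 5.28-fold higher (4.75 to 5.88), while Ccl2, the main chemokine for monocytes, was 6.69-fold lower (5.35 to 8.48), at 82.9 CPM in S, 79.7 in HFD_sed and 12.4 in HFD_EXE. Ccl7, a related chemokine, was also lower, from 109 cells of S and 6 of HFD_EXE, whereas Cxcl2, which attracts neutrophils, was 2.96-fold higher (2.81 to 3.12). Of the 16 measured inflammatory genes 1 was higher (all genes 7.07%) and 2 lower (all genes 3.73%). Slc1a2, a glutamate transporter, had 54 CPM in S, 50.6 in HFD_sed and 9.75 in HFD_EXE, and Dusp7, a phosphatase of ERK kinases, 78 CPM in S, 47.3 in HFD_sed and 21.7 in HFD_EXE.

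Metal and lipid handling differed in part in Kupffer-like cells. Of 7 genes for metallothioneins and zinc transport 4 were higher (all genes 7.07%), with a median log2 ratio of 1.03: the metal binding proteins Mt2 and Mt1 had 35.7 CPM in S, 22.2 in HFD_sed and 162 in HFD_EXE and 317 CPM in S, 271 in HFD_sed and 695 in HFD_EXE. Slc7a11, the cystine importer that NRF2 controls, had 0.512 CPM in S, 29.4 in HFD_sed and 36.2 in HFD_EXE, but only 10 cells of S and 48 of HFD_EXE held it, and neutrophil-like cells, whose cluster it leads, hold its highest level. The sulfiredoxin gene Srxn1 had 23.8 CPM in S, 27.7 in HFD_sed and 93.1 in HFD_EXE. Of 16 genes of lipid-associated macrophages 5 were higher (all genes 7.07%), 1 lower (3.73%) and 9 alike (41.1%). The tetraspanin genes Cd9 and Cd63 stood at 18.4 CPM in S, 76.1 in HFD_sed and 69.5 in HFD_EXE and at 9.48 CPM in S, 142 in HFD_sed and 32.5 in HFD_EXE, and the lipid receptor gene Trem2 at 44.6 CPM in S, 95.2 in HFD_sed and 91.2 in HFD_EXE. Mmp12, at 42.7 CPM in S, 444 in HFD_sed and 99.7 in HFD_EXE, was held by 101 cells of S and 103 of HFD_EXE. Gpnmb went the other way, but 95.7% of its UMIs in S came from 5 cells. Of 13 genes of cholesterol efflux 11 were alike, Apoe with 15829 CPM in S, 21364 in HFD_sed and 13525 in HFD_EXE.

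Genes for taking up dead cells and for antigen presentation were mostly alike in Kupffer-like cells, where 41.1% of all genes were. Of 13 genes for taking up dead cells 9 were alike, and C1qa, a bridging protein, had 4887 CPM in S, 4293 in HFD_sed and 4617 in HFD_EXE. C1qa is also among the markers from which the class was named, so that naming itself favours likeness in it. Of the complement list 5 of 14 were alike and none was called, with a median log2 ratio of -0.36, and of 16 scavenger receptors 7 were alike and 2 higher (all genes 7.07%). Of 9 MHC class II genes 7 were alike, with Cd74 at 7005 CPM in S, 10257 in HFD_sed and 5937 in HFD_EXE, while Ciita, their transactivator, was 2.38-fold lower (1.99 to 2.86). The lipases and carriers of fat differed in part: Lpl, lipoprotein lipase, was alike at 1275 CPM in S, 2312 in HFD_sed and 1646 in HFD_EXE, Fabp4, a fatty acid carrier that is highest in other endothelium, had 28.9 CPM in S, 353 in HFD_sed and 137 in HFD_EXE, and Pdk4, which spares glucose by blocking pyruvate oxidation, 4.83 CPM in S, 5.48 in HFD_sed and 19 in HFD_EXE. Of 10 checkpoint genes 3 were higher (all genes 7.07%) and 1 lower (3.73%). Cd80, a ligand that costimulates T cells, had 23.1 CPM in S, 25.7 in HFD_sed and 60.4 in HFD_EXE, and its partner Cd86 was alike at a ratio of 1.02 (0.955 to 1.1). The immediate early genes were not called in these cells: 9 of 13 were alike and none was higher or lower, with Fos at 1364 CPM in S, 1507 in HFD_sed and 1025 in HFD_EXE.

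In T-like cells 394 genes (3.15%) were higher in HFD_EXE, 455 (3.64%) lower and 4916 (39.3%) alike. Of 10 genes of naive and recirculating cells 9 were alike, and Il7r, the receptor that keeps naive and memory cells alive, was 2.13-fold higher (2.04 to 2.21), at 592 CPM in S, 568 in HFD_sed and 1258 in HFD_EXE. Serpina3f and Serpina3g, inhibitors of serine proteases, had 40.3 CPM in S, 42.9 in HFD_sed and 232 in HFD_EXE and 86.9 CPM in S, 198 in HFD_sed and 305 in HFD_EXE, and Tmem106b, a lysosomal membrane protein, 61.7 CPM in S, 73.3 in HFD_sed and 247 in HFD_EXE. Of 14 genes of exhausted and resident cells 1 was higher, Pdcd1 (PD-1), with 6.64 CPM in S, 63.8 in HFD_sed and 20.7 in HFD_EXE. Of 14 cytotoxic genes Gzmk, a granzyme, was higher with 8.26 CPM in S, 142 in HFD_sed and 28.1 in HFD_EXE, Klrg1 was lower and 7 were alike. For Pdcd1 and Gzmk HFD_EXE was far below HFD_sed and above S. Cluster 6, led by Cd8a and Gzmk among others, held 14.6% of T-like cells in S, 61% in HFD_sed and 23.9% in HFD_EXE. The part of this cluster in both levels was not tested.

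Fewer T-like cells held Foxp3, the master regulator of regulatory T cells, in HFD_EXE. Its level was 24.2 CPM in S, 19.1 in HFD_sed and 4.76 in HFD_EXE, and it was found in 44 of 986 T-like cells in S and 11 of 798 in HFD_EXE, at median depths of 6144 and 5136 UMIs. The cytokine gene Il17a was also called lower, but 98.6% of its UMIs in S came from 5 cells. Ctla4 and Tnfrsf18, which regulatory cells share with activated cells, were alike, with ratios of 0.869 (0.759 to 0.993) and 1.001 (0.893 to 1.12). All 11 genes of MHC class I presentation and all 15 nuclear genes of the respiratory chain were alike in T-like cells (all genes 39.3%).

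In NK-like cells, 108 in HFD_EXE and 355 in S, 2.28% of 9118 measured genes were higher, 4.08% lower and 11.1% alike. Of 14 cytotoxic genes 3 were lower and 7 alike. Ifng, interferon gamma, had 296 CPM in S, 133 in HFD_sed and 80.6 in HFD_EXE and was 3.68-fold lower (2.69 to 5.14). Tbx21, the transcription factor T-bet that drives it, had 170.5 CPM in S, 138 in HFD_sed and 56.2 in HFD_EXE, and Klrg1, a receptor of mature cells, 102 CPM in S, 29.4 in HFD_sed and 37.5 in HFD_EXE, from 89 cells of S and 13 of HFD_EXE. T cell markers differed in the same cells: the 8 of them summed to 1915 CPM in S and 1262 in HFD_EXE, with none at 0. Of the markers Cd8a had 239 and 33.7 CPM and Cd3e 259.9 and 111, while Cd3g was alike at a ratio of 1.07 (0.9 to 1.26), and their part in the cytotoxic result was not tested. These 3 markers were named after their values were seen. The chemokine gene Ccl5 and the granule gene Nkg7 were alike, with ratios of 0.811 (0.787 to 0.836) and 0.949 (0.883 to 1.02). Cxcl9 and Cxcl10 were called lower, but 1 cell of S held 97.2% of the Cxcl9 UMIs and 1 cell 76.3% of the Cxcl10 UMIs. Cluster 14 held 49.9% of the NK-like cells in S and 56.5% in HFD_EXE, and cluster 16 the rest.

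In neutrophil-like cells 558 of 8950 measured genes were higher, 321 (3.59%) lower and 22.2% alike. The split depended on the doublet step: with called doublets kept, 355 were higher and 551 lower. The calprotectin genes S100a8 and S100a9, abundant neutrophil transcripts, were alike, with 50599 CPM in S, 35341 in HFD_sed and 49922 in HFD_EXE for S100a9. Both are also among the markers from which the class was named, so that naming itself favours likeness in them. The cytokine gene Il1b was alike as well, at 8250.4 CPM in S, 10372 in HFD_sed and 8217 in HFD_EXE, and 11 of 16 genes of migration and activation were alike. Cxcl2 had 1835 CPM in S, 11535 in HFD_sed and 4723 in HFD_EXE and Nfkbia, the inhibitor that NF-kB induces, 744 CPM in S, 3182 in HFD_sed and 1719 in HFD_EXE, each higher in HFD_EXE than in S and highest in HFD_sed. Il1r2, the decoy receptor for interleukin 1, had 326 CPM in S, 320.3 in HFD_sed and 702 in HFD_EXE, high in HFD_EXE alone. Thbs1, a matrix protein, had 146 CPM in S, 910.5 in HFD_sed and 584 in HFD_EXE.

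Metallothionein genes were higher in neutrophil-like cells as well, 4 of 5 of that list (all genes 6.23%), with Mt2 at 25.1 CPM in S, 9.33 in HFD_sed and 100.3 in HFD_EXE. When called doublets were kept, 1 of 7 was higher. Several calls in this class rest on single cells. Ltf, lactoferrin of immature neutrophils, was named as higher, but 1 cell held 94.6% of its UMIs in HFD_EXE and without that cell it was not measured. Stfa1, a protease inhibitor of myeloid cells, was 10.1-fold lower (6.37 to 16.8), from 30 cells in S and 8 in HFD_EXE. Haemoglobin genes had the highest median ratio of the 5 classes here, with Hbb-bs at 43.2 CPM in S, 909.7 in HFD_sed and 1957 in HFD_EXE, and 5 cells of HFD_EXE held 95.7% of those UMIs. The list's median log2 ratio of 5.50 was 1.16 when only S and HFD_EXE were clustered.

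In B-like cells 631 of 10731 measured genes were lower (5.88%), 180 higher and 2697 (25.1%) alike. With each cell thinned to 2000 UMIs the counts were 250 and 141. Antigen presentation was alike: all 9 genes of MHC class II, with Cd74, the invariant chain, at 9532 CPM in S, 9179 in HFD_sed and 9825 in HFD_EXE, and 10 of 11 of class I. Ighm, the IgM heavy chain, had 3919 CPM in S, 4829 in HFD_sed and 3869 in HFD_EXE, and it is also among the markers from which the class was named. Ptpn22, a phosphatase that limits antigen receptor signals, was named as higher, with 40.9 CPM in S, 96 in HFD_sed and 301 in HFD_EXE, 7.36-fold higher (6.02 to 9.05). After thinning to 1000 UMIs it was found in 3.36% of 684 B-like cells of S and 23.3% of 480 of HFD_EXE, and without thinning in 15.1% and 60.2%. In LSEC-like cells the thinned share was 0.139% in S and 0.378% in HFD_EXE, at median depths of 7255 and 5416 UMIs. Of 14 interferon response genes 2 were lower, for example Ifitm3 at 158 CPM in S, 152 in HFD_sed and 71.4 in HFD_EXE.

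The monocyte-like class held 148 cells in HFD_EXE and 195 in S, and 2.69% of its 9483 measured genes were higher, 4.02% lower and 19.1% alike. Cluster 9 held 64.2% of it in HFD_EXE and 43.6% in S, and cluster 17 the rest. Markers of other types differed in this class: cDC markers summed to 1639.7 CPM in S and 2834 in HFD_EXE, LSEC markers to 2165 and 1353, and cholangiocyte markers to 20.02 and 135, and their part in the results here was not tested. Of 11 genes of the antioxidant NRF2 programme and iron handling 6 were higher and 1 lower. The haem oxygenase gene Hmox1 had 101 CPM in S, 495 in HFD_sed and 578 in HFD_EXE, and Txnrd1, a thioredoxin reductase, 84.6 CPM in S, 188 in HFD_sed and 199 in HFD_EXE. Of 14 inflammatory genes 7 were higher. Cxcl9, which attracts T cells, had 201 CPM in S, 582 in HFD_sed and 939 in HFD_EXE, but 5 cells of HFD_EXE held 65% of its UMIs and 5 cells of S 72.2%. Other chemokine genes of this class, Ccl24 and Ccl22 from the list of alternative activation among them, rest on few cells too: 5 cells of HFD_EXE held 77.6% of the Cxcl10 UMIs, 81% of the Ccl24 UMIs and 60.5% of the Cxcl2 UMIs, Cxcl1 was found in 4 cells of S and as many of HFD_EXE, and Ccl22 in 2 of S and 6 of HFD_EXE. Retnla, a marker of alternative activation, was called higher, but its UMIs came from 1 cell of S and 2 of HFD_EXE. The interleukin gene Il1b was alike at a ratio of 0.832 (0.746 to 0.928).

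In cDC-like cells, 133 in HFD_EXE and 146 in S, 6.47% of 10383 measured genes were higher, 3.39% lower and 23% alike. Antigen presentation was alike here too, with 8 of 9 MHC class II genes alike and Cd74 at 15632 CPM in S, 15051 in HFD_sed and 14348 in HFD_EXE. Of 14 inflammatory genes 4 were higher, with Il1a at 2.15 CPM in S and 26.9 in HFD_EXE, from 5 and 28 cells. Il1a is highest in LSEC-like cells, and LSEC markers in cDC-like cells summed to 618 CPM in S and 1595 in HFD_EXE. The part of LSEC RNA in the Il1a value was not tested.

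Listed nuclear genes of the respiratory chain were mostly alike in the 5 main classes. The nuclear genes of the respiratory chain were alike for 15 of 15 in LSEC-like (all genes 53.2%) and 14 of 15 in Kupffer-like cells (41.1%). The counts were 13 of 15 in B-like (all genes 25.1%) and 9 of 15 in neutrophil-like cells (22.2%). None was called higher or lower in any of the 5 main classes. Atp5a1, a subunit of ATP synthase, had 304 CPM in S, 325 in HFD_sed and 323 in HFD_EXE in LSEC-like cells. The mitochondrial genes mt-Co3, mt-Atp6 and mt-Co2, named after their values were seen, were among the 21 genes higher in all 5 classes. The rest of the 37 mitochondrial genes are not given here, so nuclear and mitochondrial genes are not compared as sets. In LSEC-like cells mt-Atp6 had 57.5 CPM in S, 154 in HFD_sed and 198 in HFD_EXE and in T-like cells mt-Co3 had 21.2 CPM in S, 52 in HFD_sed and 83.8 in HFD_EXE. Nuclear copies of mitochondrial genes can take part of their reads, so these levels are uncertain, and the kept cells held a median of 3.45% mitochondrial UMIs in S, 3.63% in HFD_sed and 3.72% in HFD_EXE. Interferon response genes were alike for 12 of 16 in LSEC-like (all genes 53.2%), 8 of 16 in Kupffer-like (41.1%) and 9 of 16 in T-like cells (39.3%). The count was 1 of 16 in monocyte-like (all genes 19.1%) and 1 of 16 in cDC-like cells (23%). Called higher were 2 of 15 in neutrophil-like (all genes 6.23%), 2 of 16 in monocyte-like (2.69%) and 1 of 16 in T-like cells (3.15%). Called lower were 2 of 14 in B-like (all genes 5.88%) and 1 of 13 in NK-like cells (4.08%). In cDC-like cells 2 of 16 were higher (all genes 6.47%) and 1 lower (3.39%). None was called in LSEC-like or Kupffer-like cells. The inducible hexokinase gene Hk2 was lower in Kupffer-like (137 CPM in S, 44.7 in HFD_EXE), T-like (11.4 and 1.43), neutrophil-like (39.9 and 10.03), B-like (6.54 and 1.66) and monocyte-like cells (100.1 and 39.9), though only 6 T-like, 3 B-like and 16 neutrophil-like cells of HFD_EXE held it. Gapdh and Aldoa, enzymes of the same pathway, were alike in Kupffer-like cells with ratios of 1.29 (1.22 to 1.36) and 1.07 (1.02 to 1.13).

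**Figure D5:**
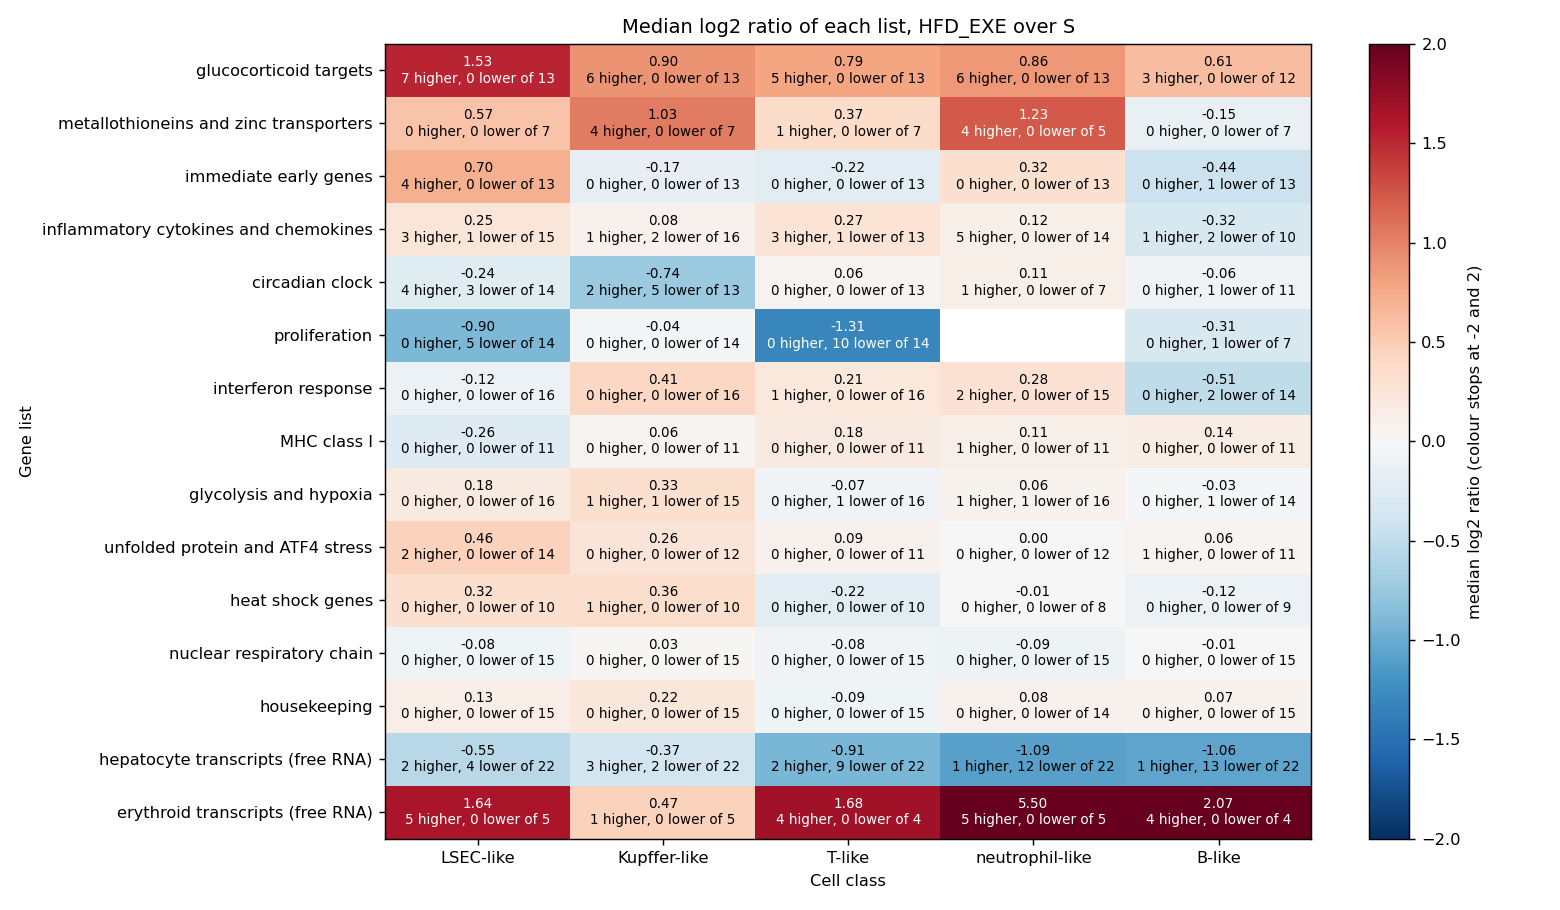
Median log2 ratio of CPM in HFD_EXE over S (colour and upper number) for 15 gene lists in 5 classes, with the number of measured members called higher and lower beneath; the proliferation list was not described in neutrophil-like cells. The glucocorticoid row is positive in all 5 classes, from 0.61 to 1.53, and the respiratory chain row lies between -0.09 and 0.03.

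Transcripts of hepatocytes and red cells found in other classes also differed between the libraries. The 22 listed hepatocyte transcripts summed to 1795 CPM in LSEC-like cells of S, 1093 in HFD_sed and 1298 in HFD_EXE, with Alb, albumin, at 476 CPM in S, 241 in HFD_sed and 187 in HFD_EXE. They did not move together: Car3, carbonic anhydrase 3, was higher in HFD_EXE, at 3.29 CPM in S, 37.4 in HFD_sed and 25.9 in HFD_EXE, and Fabp1, the liver fatty acid binding protein, had 79.98 CPM in S, 159 in HFD_sed and 226 in HFD_EXE. In T-like cells 9 of 22 were lower (all genes 3.64%) and 2 higher (all genes 3.15%), Car3 and Fabp1. Erythroid transcripts were higher in all 5 classes by their median, from 0.47 in Kupffer-like to 5.50 in neutrophil-like cells. Called higher were 5 of 5 in LSEC-like (all genes 4.65%) and 1 of 5 in Kupffer-like cells (7.07%).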

How the data were processed

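Droplet single-cell RNA-seq (3' V3) of liver cells was deposited as 1 count matrix per library, and the authors' matrices hold raw UMI counts per gene and barcode, made with Cell Ranger 6.1.2 on GRCm39 per the submitters' processing notes. The lowest barcode in each matrix held 500 UMIs. Total counts were 84666844 UMIs in S, 63456399 in HFD_sed and 60901242 in HFD_EXE. The filter of 500 UMIs, 300 genes and 15% mitochondrial UMIs passed 10615, 11068 and 10467 barcodes. Scrublet, run from Scanpy 1.11.5, scored doublets. The threshold it set itself marked 468, 299 and 0 cells, so the mean of the 2 working thresholds, 0.219, was applied to all libraries and removed 403, 328 and 295 cells.

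Cells were clustered together with Scanpy and leidenalg 0.10.2 on 2000 variable genes, 30 principal components and 15 neighbours at resolution 1.0, with no batch correction. A cluster was named for the type with the highest scaled marker level among those of which 3 or more markers were seen in a share of 0.2 of its cells or above at a log2 fold of 1 or more over clusters of other lineages. The thresholds for mixed clusters and the comparison across lineages were set after the clusters were seen, and 1 cluster of 62 cells stayed mixed and unnamed. Counts were summed per class and library with NumPy 2.4.6, and ratios of CPM were given exact 95% intervals from the binomial split of the 2 counts (SciPy 1.17.1), levels exact Poisson intervals and shares exact binomial ones. The expression script was tested on simulated data. No p-value was computed, since each side has 1 library.

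Named genes were, per class and direction, the 5 (LSEC-like, Kupffer-like) or 3 (T-like, neutrophil-like, B-like) called genes with the largest interval bound on the side of no change, at 50 CPM or more and at least 0.5 times the level over all kept cells, and 4 per direction among genes called in all 5 classes. Of each list, up to 4 members by the same bound, members against the median, and up to 3 alike members with the narrowest intervals were named. Nr3c1 in T-like cells and Ccl22 and Ccl24 in monocyte-like cells were named after their values were seen. A gene of the lists is not reported here. The gene lists and the comparison itself were chosen with earlier results of these data known. Alternatives covered clustering, class naming, doublets, cell filters, denominators, scaling, UMI minimum, fold, free RNA (profile of barcodes with 500 to 800 UMIs) and leading genes of clusters. Another 3 were added after seeing the data: thinning to 2000 UMIs, a Kupffer-like class without the 187 cells of S and 170 of HFD_EXE that hold Mmp12 or Cx3cr1, and leaving out the highest cell of each gene in each library.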

Additional observations from a re-analysis of the deposited data

How the results depend on the processing

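No paired analysis was possible because each side has 1 library, so no library could be left out either. Among immune cells alone the ratio of HFD_EXE to S turned to 1.19 for T-like, 1.04 for B-like, 1.36 for neutrophil-like, 1.34 for cDC-like and 1.11 for monocyte-like cells, and among non-immune cells to 0.769 for cholangiocyte-like cells. The LSEC-like, Kupffer-like and NK-like ratios kept their side of 1 under every alternative run. The LSEC-like ratio of 1.62 became 1.35 at resolution 0.5, 1.39 at resolution 2.0, 1.31 with types by marker mean, 1.44 under 10% mitochondrial UMIs, 1.41 at 1500 UMIs or more, 1.2 among non-immune cells and 1.49 without low-UMI clusters. The Kupffer-like ratio of 0.539 became 0.499, 0.5002, 0.453, 0.467 and 0.454 under the first 5 of these, 0.789 among immune cells and 0.497 without low-UMI clusters. The causes were not tested.

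With at least 100 UMIs, which tests fewer genes, the genes higher and lower were 393 and 266 in LSEC-like, 563 and 299 in Kupffer-like, 130 and 170 in T-like, 181 and 87 in neutrophil-like and 45 and 208 in B-like cells. At 1.5-fold they were 1404 and 1351, 1774 and 1166, 824 and 853, 968 and 621, and 427 and 1060 in the same order. Thinning to 2000 UMIs, which leaves fewer UMIs, gave 575 higher in Kupffer-like, 259 higher and 246 lower in T-like, 302 higher in neutrophil-like and 250 lower in B-like cells. The Kupffer-like count of lower genes was 939 as a mean over cells and 1227 with free RNA subtracted. Neutrophil-like counts were 355 higher and 551 lower with doublets kept. B-like counts were 274 higher with no UMI minimum and 380 lower as a mean over cells.

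Of 267 list medians under alternatives 251 kept direction and size, 13 moved and 3 turned: the inflammatory list in neutrophil-like cells to -0.042 without leading genes of clusters, and hepatocyte transcripts with free RNA subtracted to 0.58 in T-like and 0.30 in neutrophil-like cells, which is what that subtraction sets out to remove. Of 1082 values of single named genes, counted only where the gene stayed measured under the alternative, 1079 kept their call. With free RNA subtracted Akr1c6 in LSEC-like cells turned to -3.66, and Mir6236 was no longer called in T-like (-0.91) and neutrophil-like cells (-0.33). Under that subtraction Cyp4a14 and Cyp4a10 were no longer measured in any main class. Akr1c6 was then measured in LSEC-like cells alone and Cxcl13 in Kupffer-like cells alone, and Mup11 and Mir6236 were not measured in Kupffer-like cells. Other scalings moved the median of all genes by at most 0.09 on the log2 scale. Genes with few UMIs, and the NK-like, monocyte-like and cDC-like classes with their few cells, are limited by depth.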
